A study of Mus musculus with 3 samples.

Results

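The genes described here are Ifit1, Ifit2, Ifit3, Ifit3b, Isg15, Usp18, Rsad2 and Cmpk2, 8 strongly interferon-inducible genes. They were selected by gene name from a table of 54532 genes. Their levels were measured by RNA-seq in 3 hippocampal libraries from mice at 10 months of age, 1 library for each genotype on a C57BL/6 background. The WT library carried neither genetic change. The PS19 library came from mice with a human mutant tau transgene driven by the mouse prion protein promoter, a model of tau pathology, and the PS19 Zbp1+/- library from mice with that transgene and a lost Zbp1 allele. Zbp1 encodes a sensor of left-handed (Z-form) nucleic acid. The comparisons ask how far these genes differ between the tau model and WT, and where they lie when Zbp1 dosage is lowered. The labels give no sex, no sequencing batch and no number of animals per library. No genotype had a replicate, so each difference below compares libraries rather than genotypes. No molecular identifiers are described in the labels, and reads need not be independent molecules, so the intervals reflect counting error alone.

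Type I interferons bind the Ifnar1 and Ifnar2 receptor pair, and the kinases Jak1 and Tyk2 then pass the signal on. A complex that holds Stat2 and Irf9 binds the interferon-stimulated response element (ISRE) in the promoters of target genes. Ifit proteins bind foreign RNA and block its translation, Isg15 is a ubiquitin-like modifier that is attached to proteins, and Usp18 removes Isg15 from proteins and dampens signalling at the Ifnar2 receptor chain. Rsad2 encodes viperin, a radical SAM enzyme that makes a chain-terminating nucleotide. Cmpk2 encodes a mitochondrial nucleotide kinase next to Rsad2. In brain, microglia, astrocytes and neurons can all express such genes.

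The promoter stretches that carry ISRE-type letters are shown first, because the genes differ in whether and how often they hold them. The motif searched was GAAANNGAAA on both strands, which reads TTTCNNTTTC on the other strand. Windows ran from 250 bases before to 50 bases after each RefSeq start (GRCm38.p6) and were given for 7 of the 8 genes (not Usp18). Of these 7 genes, 5 held at least 1 match, against 3.44% of all 32851 windows and 3.99% of 27025 genes. A window with 2 or more matches occurred in 0.225% of windows, and Ifit1, Ifit3, Ifit3b and Isg15 each had one. Capitals mark the matches, and each stretch is written 5′ to 3′ on the strand of its gene.
Ifit1 (chr19:34640770-34640828, plus strand): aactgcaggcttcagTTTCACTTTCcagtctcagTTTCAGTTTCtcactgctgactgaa
Ifit3 (chr19:34583358-34583431, plus strand): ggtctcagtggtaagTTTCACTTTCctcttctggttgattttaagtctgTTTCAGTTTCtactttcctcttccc
Ifit3b (chr19:34607754-34607827, plus strand): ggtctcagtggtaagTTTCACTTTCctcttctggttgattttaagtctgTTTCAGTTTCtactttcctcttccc
Isg15 (chr4:156200860-156200911, minus strand): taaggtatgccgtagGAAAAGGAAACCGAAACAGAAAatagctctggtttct
Rsad2 (chr12:26456548-26456587, minus strand): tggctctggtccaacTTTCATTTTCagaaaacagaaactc
Cmpk2 (chr12:26469145-26469214, plus strand), no match: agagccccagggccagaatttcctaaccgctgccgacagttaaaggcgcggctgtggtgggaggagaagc
Ifit2 (chr19:34550624-34550693, plus strand), no match: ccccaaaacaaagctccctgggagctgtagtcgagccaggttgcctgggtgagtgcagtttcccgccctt
The Ifit3 and Ifit3b stretches are the same in every base. Ifit1 holds the same pair of matched 10-base words as Ifit3, TTTCACTTTC and TTTCAGTTTC, closer together. In Isg15, 3 overlapping matches begin 78, 72 and 66 bases before the start. Rsad2 has a single match, beginning 120 bases before its start. Neither of the Ifit2 windows given nor the Cmpk2 window held one, which says only that these letters are not in these windows.

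Several facts of the libraries bear on all values. Whole reads recovered from the FPKM values (a level corrected for the length of the gene and the size of the library) numbered between 16400328 and 17109734 per library. Zbp1, the targeted gene, had 91 reads in PS19 against 5 in WT and 0 in PS19 Zbp1+/-, so the library labelled as heterozygous held no Zbp1 read at a limit of 0.0537 FPKM. Its Y-linked genes were read and Xist was not, the reverse of both other libraries, so sex and Zbp1 dosage cannot be told apart in either comparison of that library. Weakly expressed genes were lost there: of 357 genes that WT and PS19 each covered with 8 to 12 reads, 57 (16.0%, exact 95% interval 12.3% to 20.2%) had 0 reads in PS19 Zbp1+/-. Choroid plexus markers were also nearly gone from it, with a summed level of 10.5 FPKM against 3122 in WT and 1909 in PS19.

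All 8 genes were highest in PS19, and 7 of them, all but Cmpk2, were at least 2-fold above both other libraries on the log2(FPKM + 1) scale. Of the 12875 protein-coding genes that reached 1 FPKM in some library, 1.74% met that criterion. Over the 8 genes the summed level was 82.2 FPKM in PS19, against 15.1 in WT and 12.7 in PS19 Zbp1+/-. PS19 thus stood 5.43-fold above WT and 6.49-fold above PS19 Zbp1+/-. Between PS19 and WT, the median difference of the 8 genes was 1.97 log2 units, against -0.03 for all 12703 genes tested, and 7 of 8 were at least 2-fold higher and 0 lower. Of all genes tested, 2.20% were higher and 0.291% lower. Between PS19 Zbp1+/- and PS19, the median was -1.97, against 0.04 for 12772 genes, and 7 of 8 were at least 2-fold lower and 0 higher. Of those genes 5.16% were lower and 2.0% higher. The PS19 library serves in both comparisons, so a value that is high there by chance enters both with opposite sign. All 8 genes reached an FPKM of 1 in PS19, so each passed the filter in these comparisons through that library. The 3 genes under 1 FPKM in WT, and the 4 under it in PS19 Zbp1+/-, passed through PS19 alone. A pseudocount of 0.1 moved the second median to -3.41, rescaling to equal sums (TPM) to -3.15 and read ratios to -3.70. Adding 1 to a low FPKM shrinks its fold by construction.

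**Figure D1:**
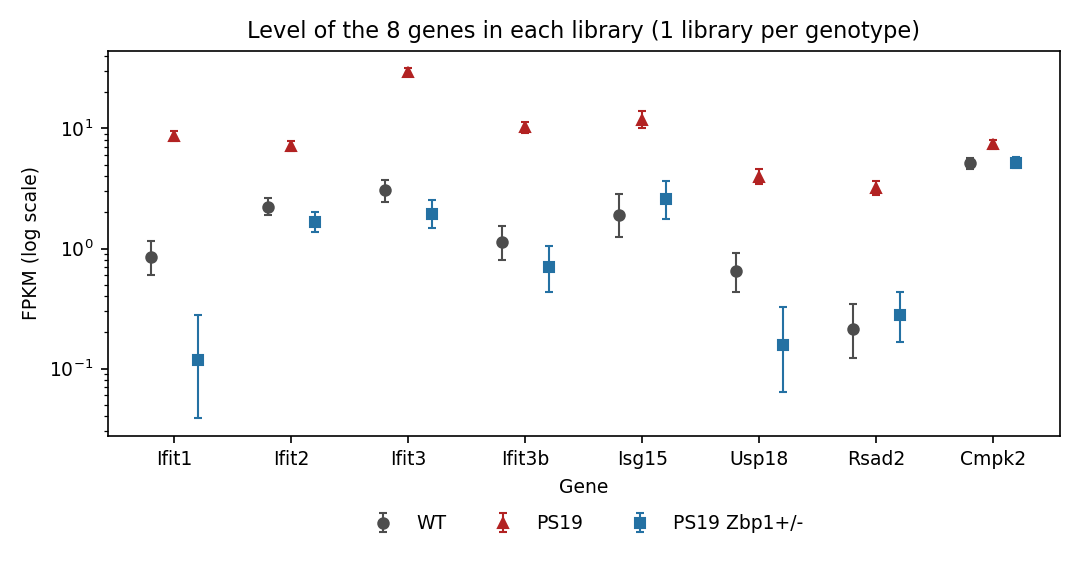
FPKM on a log axis (y) of each of the 8 genes (x) in the WT, PS19 and PS19 Zbp1+/- libraries. Points are the single library of each genotype and bars are exact 95% Poisson counting intervals. PS19 lies above both other libraries for every gene, from 3.20 FPKM (Rsad2) to 29.7 FPKM (Ifit3), and Cmpk2 has the smallest gap.

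Ifit3 (ENSMUSG00000074896) was the most abundant of the 8 in PS19. PS19 held 897 reads of it (29.7 FPKM), WT 92 (3.06) and PS19 Zbp1+/- 54 (1.96). PS19 stood far above the others and WT was above PS19 Zbp1+/-. Scaled to library size, the read ratio of PS19 over WT was 9.73, and its exact 95% interval (Clopper-Pearson) ran from 7.84 to 12.2, and PS19 Zbp1+/- was 15.2-fold below PS19 (11.6 to 20.4). Its difference of 2.92 log2 units ranked 6 among the 12703 genes tested between PS19 and WT, and that of -3.38 ranked 14 among the 12772 genes ordered from the largest decrease.

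Ifit3b (ENSMUSG00000062488) is a near copy of Ifit3. PS19 held 353 reads of it (10.2 FPKM), WT 39 (1.13) and PS19 Zbp1+/- 22 (0.695). Its ratio was 9.03 for PS19 over WT (6.48 to 12.9), and PS19 Zbp1+/- was 14.7-fold below PS19 (9.55 to 23.7). The coding sequences of the pair, 1209 bases each in GENCODE M21, differ at 11 bases, an identity of 99.1%. By contrast, Ifit1 and Ifit3 share 50.9% of aligned coding bases and Ifit1 and Ifit2 share 55.7%. The stretch with most differences, coding bases 229 to 288, shows how close the copies are, with capitals at the bases that differ.
Ifit3: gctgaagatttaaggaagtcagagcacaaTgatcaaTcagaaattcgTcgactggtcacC
Ifit3b: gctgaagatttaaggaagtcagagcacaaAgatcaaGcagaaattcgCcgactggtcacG
Of all 100-base stretches of the Ifit3 transcript, 31.7% occur unchanged in Ifit3b, so some reads of either gene cannot be placed, and how such reads were counted is not given in the sources used here. Summed over the pair, which does not depend on that placement within the pair, reads numbered 1250 in PS19, 131 in WT and 76 in PS19 Zbp1+/-. The summed ratio was 9.52 for PS19 over WT (7.95 to 11.5), and PS19 Zbp1+/- was 15.1-fold below PS19 (11.9 to 19.2). Ifit3 held 70.2% of the pair's reads in WT, 71.8% in PS19 and 71.1% in the library with both changes, shares whose exact 95% intervals overlap.

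Ifit1 (ENSMUSG00000034459), which binds RNA that lacks the methylated cap of host messengers, had the largest read ratio of the 8 between PS19 and PS19 Zbp1+/-, while Ifit3 had the larger difference on the log2(FPKM + 1) scale (-3.38 against -3.12). PS19 held 400 reads (8.71 FPKM), WT 39 (0.851) and PS19 Zbp1+/- 5 (0.119). None of the 3 counting intervals overlapped. PS19 was 10.2-fold above WT (7.36 to 14.6) and PS19 Zbp1+/- was 73.2-fold below PS19 (31.1 to 227), from 5 reads and with an interval that overlaps that of Usp18 (11.9 to 63.0).

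Ifit2 (ENSMUSG00000045932) had the smallest contrast of the 4 Ifit genes. Reads numbered 487 in PS19 (7.17 FPKM), 151 in WT (2.23) and 104 in PS19 Zbp1+/- (1.67). PS19 was 3.22-fold above WT (2.68 to 3.89), an interval that lies below those of Ifit1, Ifit3 and Ifit3b. PS19 Zbp1+/- was 4.29-fold below PS19 (3.46 to 5.35), again a smaller drop than in the other Ifit genes, with intervals that do not overlap.

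Isg15 (ENSMUSG00000035692, GRCm38 chr4:156199424-156200818, minus strand), the modifier, had 155 reads in PS19 (11.9 FPKM), against 25 in WT (1.92) and 31 in PS19 Zbp1+/- (2.59). PS19 was 6.19-fold above WT (4.04 to 9.86), and PS19 Zbp1+/- was 4.58-fold below PS19 (3.10 to 6.97). The counting intervals of WT and PS19 Zbp1+/- overlapped. A processed pseudogene, AC151275.1, matches 482 bases of Isg15 at 95.2% identity and held 3 reads in PS19, 1 in PS19 Zbp1+/- and 0 in WT, few beside the counts of Isg15.

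Usp18 (ENSMUSG00000030107, GRCm38 chr6:121245906-121270917, plus strand), the protease that takes Isg15 off its targets, had 191 reads in PS19 (3.96 FPKM), against 31 in WT (0.644) and 7 in PS19 Zbp1+/- (0.159). Its PS19 over WT ratio of 6.15 (4.19 to 9.30) was close in size to that of Isg15. In PS19 Zbp1+/- it was 25.0-fold below PS19 (11.9 to 63.0), a larger drop than that of Isg15, with intervals that do not overlap. That drop rests on 7 reads, and on the log2(FPKM + 1) scale the differences of Isg15 and Usp18 in this comparison, -1.84 and -2.10, have overlapping intervals.

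Rsad2 (ENSMUSG00000020641, GRCm38 chr12:26442746-26456452, minus strand) was the lowest of the 8 in WT and in PS19 and had the largest ratio between them. Reads numbered 240 in PS19 (3.20 FPKM), 16 in WT (0.214) and 19 in PS19 Zbp1+/- (0.277). PS19 was 14.97-fold above WT (9.03 to 26.6) and PS19 Zbp1+/- was 11.6-fold below PS19 (7.24 to 19.5). The first ratio rests on 16 reads in WT, and its interval overlaps those of Ifit1, Ifit3, Ifit3b, Isg15 and Usp18. In PS19 the counting intervals of the Rsad2 and Usp18 levels overlapped. On the log2(FPKM + 1) scale its difference between PS19 and WT, 1.79, was smaller than that of Isg15, 2.14, because that scale compresses low levels.

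Cmpk2 (ENSMUSG00000020638, GRCm38 chr12:26469204-26479837, plus strand) starts 12.8 kb from Rsad2 and points the other way. It had the highest FPKM of the 8 in WT (5.11) and in PS19 Zbp1+/- (5.19), with 7.36 in PS19, from 367, 342 and 530 reads. PS19 was above both, yet the ratio over WT was 1.44 (1.26 to 1.65) and the drop to PS19 Zbp1+/- was 1.42-fold (1.24 to 1.63). Both intervals lie apart from those of Rsad2 by a wide margin. Its differences of 0.45 and -0.43 log2 units ranked 1196 of 12703 and 2226 of 12772, so Cmpk2 stayed under the 2-fold threshold in each comparison.

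**Figure D2:**
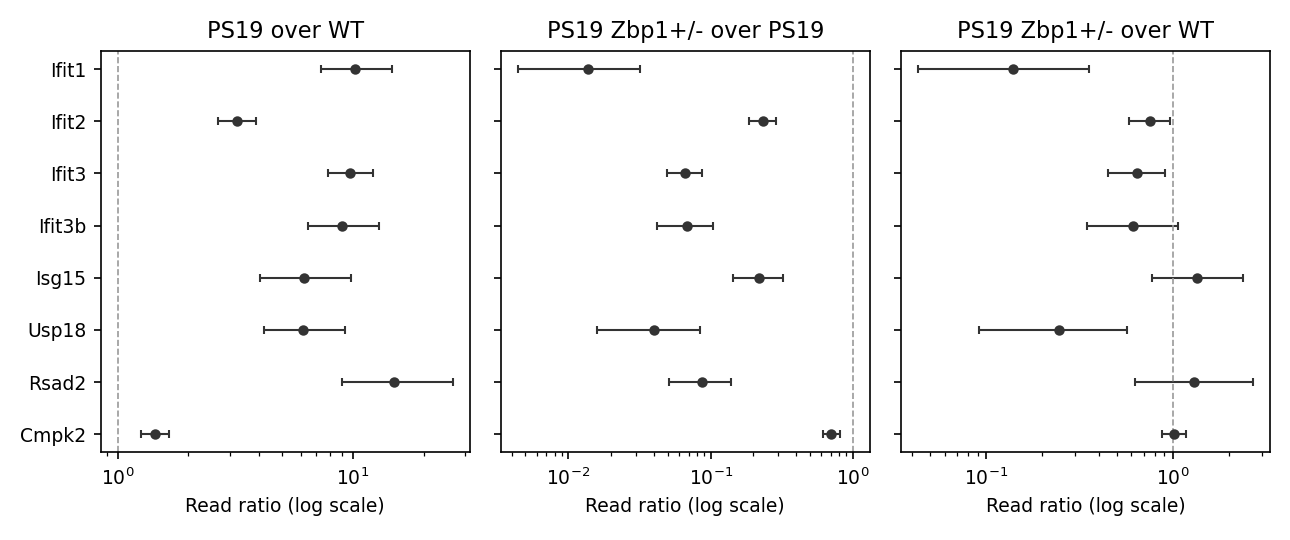
Read ratio per library size on a log axis (x) for each of the 8 genes (y), in 3 panels for PS19 over WT, PS19 Zbp1+/- over PS19 and PS19 Zbp1+/- over WT. Points are ratios, bars exact 95% counting intervals and the dashed line marks a ratio of 1. In the third panel only Ifit1 (0.140), Usp18 (0.246), Ifit3 (0.640) and Ifit2 (0.751) have intervals that lie below 1.

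Without PS19, the remaining pair of libraries split the genes. Between PS19 Zbp1+/- and WT the median difference was -0.30 log2 units, against 0.01 for all 12436 genes tested, and 0 of 8 genes passed 2-fold on the log2(FPKM + 1) scale, where 3.35% of all genes did (1.07% higher, 2.28% lower). Only 5 of the 8 reached an FPKM of 1 in either of these libraries. In read ratios, Ifit1 was 7.16-fold lower in PS19 Zbp1+/- than in WT (2.82 to 23.3) and Usp18 4.06-fold lower (1.76 to 10.9). Ifit3 was 1.56-fold lower (1.10 to 2.23) and Ifit2 1.33-fold lower (1.03 to 1.73). The intervals of Ifit3b, Isg15, Rsad2 and Cmpk2 held 1, with ratios of 0.615, 1.35, 1.29 and 1.02. With a pseudocount of 0.1, 2 of the 8 passed 2-fold, where 6.70% of all genes did. The count was also 2 with TPM and with read ratios, beside 7.78% and 7.39% of all genes.

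The counts of Ifit1 and Usp18 in PS19 Zbp1+/- lay well under the median of genes of like depth in WT. Of 588 protein-coding genes with 31 to 47 reads in WT, 41 (6.97%) had no more than the 5 reads of Ifit1 in PS19 Zbp1+/-, and the median there was 27. Of 578 with 24 to 38 reads in WT, 85 (14.7%) had no more than the 7 reads of Usp18, with a median of 23. Rsad2 went the other way: its 16 reads in WT and 19 in PS19 Zbp1+/- compare with a median of 11 in PS19 Zbp1+/- over 669 genes with 12 to 20 reads in WT. The part of the library's loss of weak genes in the Ifit1 and Usp18 values was not tested.

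The order of levels changed with the library. In WT it ran from Cmpk2 through Ifit3, Ifit2, Isg15, Ifit3b, Ifit1 and Usp18 to Rsad2, and each neighbouring pair from Ifit3 to Usp18 had overlapping counting intervals. In PS19, Ifit3 stood clear at the top at 29.7 FPKM, followed by Isg15, Ifit3b, Ifit1, Cmpk2 and Ifit2, whose neighbours overlapped, and by Usp18 and Rsad2. In PS19 Zbp1+/-, Cmpk2 was again clear of the rest, and Rsad2, Usp18 and Ifit1 formed the bottom with neighbouring intervals that overlapped. Ifit1 thus moved from the fourth place in PS19 to the last in PS19 Zbp1+/-. The ratio of highest to lowest gene was lowest in PS19 at 9.28, with 23.9 in WT and 43.6 in PS19 Zbp1+/-.

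The Ifit genes lie together on chromosome 19 (GRCm38 chr19:34550694-34650009), a span of 99.3 kb with 6 Ifit genes in the table. The 4 members are on the plus strand. Between them, on the minus strand, lie Ifit1bl1 and Ifit1bl2, Ifit1-like genes. Ifit1bl1 had 37 reads in PS19, against 42 in WT and 60 in PS19 Zbp1+/-. Ifit1bl2 had 10, against 16 and 23. Neither was higher in PS19: their ratios to WT were 0.879 (0.550 to 1.40) and 0.624 (0.253 to 1.46). Against PS19, PS19 Zbp1+/- was higher at 1.77 (1.16 to 2.74) and 2.51 (1.15 to 5.91), the direction opposite to that of the 4 members. Ifit1bl2 and Ifit1 run in opposite directions with 127 bases between their starts, and both matches in the Ifit1 stretch printed above lie between the starts. The promoter windows of Ifit1bl1 and Ifit1bl2 held ISRE-type matches too. Those of Ifit1bl2 began 70 and 51 bases before its start and are the same sites as those of Ifit1, read from the other side. These letters alone thus did not separate the genes that were higher in PS19 from those that were not.

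**Figure D3:**
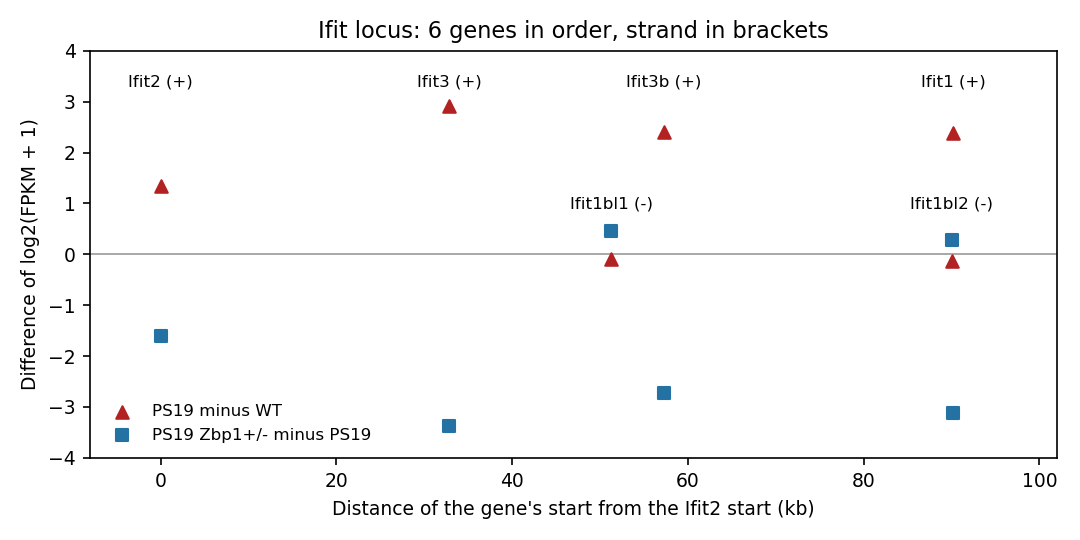
Difference of log2(FPKM + 1) (y) for the 6 Ifit genes placed by the distance of their start from that of Ifit2 in kb (x), with the strand in brackets. Triangles show PS19 minus WT and squares PS19 Zbp1+/- minus PS19. The 4 plus-strand members run from 1.34 to 2.92 and from -1.61 to -3.38, while Ifit1bl1 and Ifit1bl2 lie near 0 or on the other side.

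Beyond the members, 30 protein-coding genes lay within 250 kb of one. Between PS19 and WT, 23 of them reached 1 FPKM. On the log2(FPKM + 1) scale 0 of these 30 were 2-fold or more higher and 0 lower, where 2.20% and 0.291% of all genes tested were. Their differences ran from -0.63 to 0.84 log2 units. The gene nearest the threshold was Fas, a death receptor near the Ifit locus, with 64 reads in PS19, 22 in WT and 10 in PS19 Zbp1+/-. In read ratios of PS19 over WT, Fas stood at 2.90 (1.76 to 4.95), Tnfrsf18 at 2.39 (1.57 to 3.70) and Tnfrsf4 at 2.11 (1.16 to 4.01). Ttll10 went the other way, at 0.399 (0.127 to 1.09). In PS19 Zbp1+/- against PS19, 4 of the 24 tested (Fas, Slc16a12, Tnfrsf4 and Slc6a13) were at least 2-fold lower and 0 higher, where 5.16% of all genes were lower. Their differences were -1.18, -1.18, -1.34 and -1.04. Against WT, 2 of 22 tested were lower in PS19 Zbp1+/-, C1qtnf12 at -1.18 and Slc6a13 at -1.20, where 2.28% of all genes were. The only neighbour on the Rsad2 and Cmpk2 side, Rnf144a, had differences of 0.26 and -0.48.

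ISRE-type letters were also counted in the genes outside the 8. Of 9958 other protein-coding genes tested between PS19 and WT with a promoter window, 352 held a match, and 28 of these (7.95%) were at least 2-fold higher in PS19. Among the 9606 without a match, 172 (1.79%) were. Of 37 interferon-stimulated effector genes from the list described next, 21 (56.8%) held a match. These shares describe letters in a window and do not show binding.

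The rest of the interferon pathway was read from lists by role, 99 genes in all, of which 62 reached an FPKM of 1 in PS19 or WT. PS19 exceeded WT by 2-fold or more for 33 and fell short of it by as much for 0, where 2.20% and 0.291% of all genes tested did. For 41 genes PS19 Zbp1+/- lay at least 2-fold under PS19, and for 0 above it, where 5.16% and 2.0% of all genes tested did. Reads of the genes named below are given in the order WT, PS19 and then PS19 Zbp1+/-. The median over all 99, unread ligand genes included, was 0.64 in the first comparison and -0.80 in the second. Over the 62 that passed the filter in each it was 0.99 and -1.20, and all 8 members, with medians of 1.97 and -1.97, had passed it.

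The interferon genes themselves were almost unread. Of 21 ligand genes, among them Ifnb1, Ifng and 13 Ifna genes, 20 had 0 reads in every library and Ifne had 2 reads in PS19. A count of 0 allows an FPKM of 0.119 to 0.338, depending on gene length and library, so ligand transcripts were not detectable at this depth.

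The 7 receptor and signalling genes stayed under 2-fold between PS19 and WT. Irf9 differed by 0.77 (279, 540 and 170 reads) and Stat2 by 0.70 (447, 791 and 482 reads), both parts of the complex that binds the ISRE. Irf9 lay more than 2-fold under PS19 in PS19 Zbp1+/-, at -1.18, and Stat2 differed by -0.51. Receptor gene Ifnar1 and the kinase gene Jak1 had differences of 0.16 and 0.01 between PS19 and WT.

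Among 13 sensors and inducing factors, PS19 was 2-fold or more above WT for 5, and PS19 Zbp1+/- was that far below PS19 for 7. The shares of all genes tested were 2.20% and 5.16%. Irf8, a myeloid transcription factor, differed by 1.47 (98, 487 and 124 reads), Irf7, the inducible driver of interferon genes, by 1.44 (46, 236 and 31 reads), and Ddx58, the RNA sensor RIG-I, by 1.18 (104, 392 and 85 reads). Against PS19, the same 3 genes in PS19 Zbp1+/- were at -1.24, -1.60 and -1.26.

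The enzymes that attach Isg15 differed less than Isg15 itself on the log2(FPKM + 1) scale. Trim25, a ligase with Isg15 activity, differed by 1.04 between PS19 and WT (160, 436 and 177 reads), the activating enzyme Uba7 by 0.92 (66, 228 and 52 reads) and Herc6, the main mouse ligase, by 0.67 (74, 212 and 35 reads). The conjugating enzyme Ube2l6 differed by 0.53, and Arih1 was level at 0.01. In PS19 Zbp1+/- all 5 were below PS19, from -0.11 to -0.99 on that scale, where 0 passed 2-fold. In read ratios 4 of the 5 did. Herc6 was 5.55-fold below PS19 (3.87 to 8.17) and Uba7 4.01-fold (2.96 to 5.54), with intervals that overlap that of Isg15, while Ube2l6 was 2.55-fold and Trim25 2.26-fold below. The read ratio of Uba7 for PS19 over WT, 3.45 (2.61 to 4.61), has an interval that overlaps those of Isg15 and Usp18. Overlap of intervals does not decide whether the ratios differ, and the gap itself was not tested.

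Of 3 feedback inhibitors, Socs3 was higher in PS19 than in WT by 1.09, with 31, 123 and 36 reads, and Socs1 and Pias1 differed by 0.05 and -0.01. Of 48 other interferon-stimulated effectors, PS19 was at least 2-fold above WT for 26, PS19 Zbp1+/- was as far below PS19 for 32, and 0 went the other way in either comparison. Among all genes tested, 2.20% were that far higher in the first comparison and 5.16% that far lower in the second. The largest differences between PS19 and WT were those of the chemokine Cxcl10 at 2.11 (13, 186 and 4 reads), of Ifi27l2a (14, 80 and 3 reads, a read ratio of 5.70) and of Oasl2 at 1.98 (79, 638 and 39 reads). Compared with WT, 4 of the 48 lay 2-fold or more lower in PS19 Zbp1+/-, where 2.28% of all genes tested did.

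**Figure D4:**
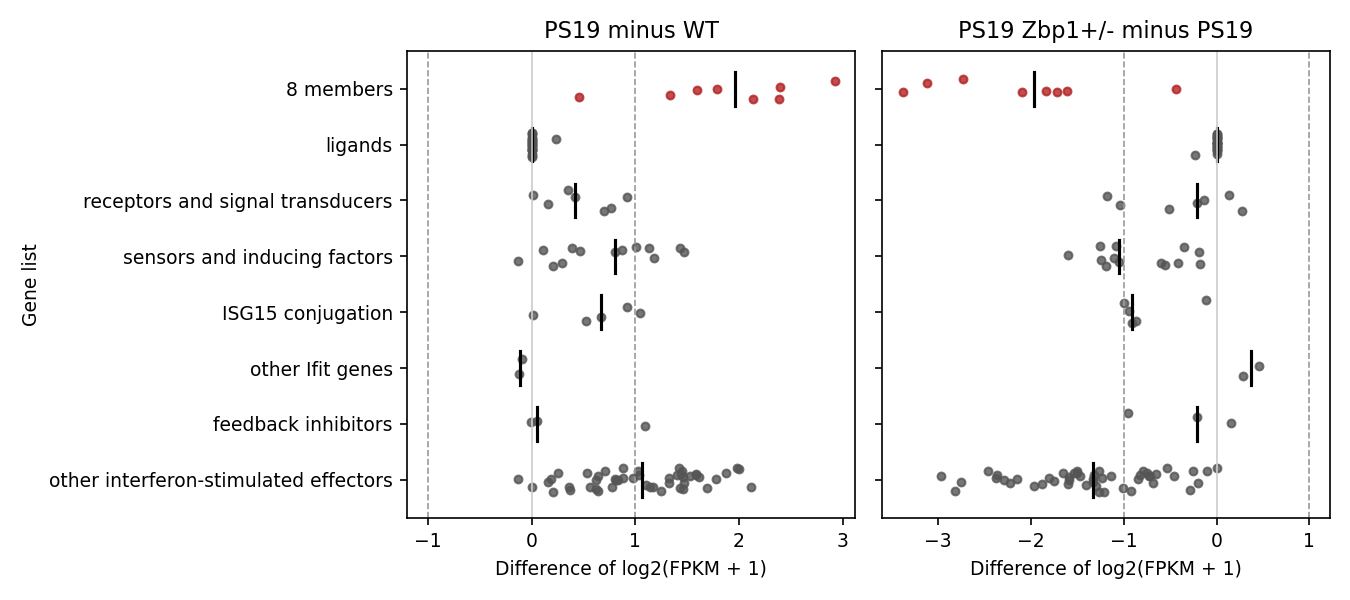
Difference of log2(FPKM + 1) (x) of each gene by list (y), with PS19 minus WT on the left and PS19 Zbp1+/- minus PS19 on the right. Points are genes, spread vertically for display, black bars are medians and dashed lines mark 2-fold. The members have medians of 1.97 and -1.97, and the ligands sit at 0 but for Ifne. All 48 other effectors are plotted, with medians of 1.07 and -1.32. Over the 36 of them that passed the filter the medians are 1.32 and -1.49.

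The genes whose pattern lay closest to the members were sought by the Euclidean distance between centred log2(FPKM + 1) values over the 3 libraries and the median profile of the 8. The 5 nearest of the genes outside the 8 were Cdkn1a (0.0518), Cd300c2 (0.0909), Plek (0.10), Rtp4 (0.105) and Iigp1 (0.106). Cdkn1a, the cell cycle inhibitor p21, had 167, 804 and 137 reads (WT, PS19, then PS19 Zbp1+/-), and Plek, the leukocyte protein pleckstrin, had 169, 829 and 149. Rtp4 and Iigp1, both interferon-inducible, had 25, 190 and 13 reads and 26, 222 and 19 reads. Among the members the distance ran from 0.230 (Rsad2) to 1.01 (Ifit3) and 1.23 (Cmpk2). With only 3 libraries, many genes high in PS19 lie near such a profile.

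Markers of several cell types moved with the members. Summed over 8 microglial markers, the level was 399 FPKM in PS19, against 126 in WT and 130 in PS19 Zbp1+/-. PS19 stood 3.18-fold above WT, and 5 of the 8 were at least 2-fold higher, where 2.20% of all genes tested were. Cx3cr1 and C1qa differed by 2.18 and 2.07 log2 units, while P2ry12 and Tmem119 differed by -0.13 and 0.16. Per 100 FPKM of these microglial markers, the 8 members held 20.6 FPKM in PS19, against 12.1 in WT and 9.71 in PS19 Zbp1+/-. In the order WT, PS19 and then PS19 Zbp1+/-, astrocyte markers summed to 348, 1163 and 382 FPKM, with Gfap highest at 768 FPKM in PS19, and per 100 FPKM of them the members held 4.35, 7.07 and 3.31. Only 2 of the 6 astrocyte markers were at least 2-fold higher in PS19 than in WT. Their median difference was 0.56, in a range of 0.35 to 2.95, so the sum leans on few genes. Oligodendrocyte markers summed to 732, 1315 and 478 FPKM, endothelial markers to 32.9, 33.5 and 50.4, and neuronal markers to 713, 615 and 901. The endothelial sum rose through 1 gene: 4 of the 5 markers were lower in PS19 Zbp1+/- than in PS19, with a median difference of -0.14. In bulk tissue, more cells of a type and more RNA per cell cannot be told apart, and the part of these markers in the member values was not tested.

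Markers of blood-borne cells were low. The 6 T cell genes held 18, 58 and 37 reads in all, with Cd3e and Cd3d at 0 reads in WT and in PS19 Zbp1+/-. The 4 B cell genes held 7, 11 and 16 reads, with Ms4a1 at 0 in every library. The 6 neutrophil and monocyte genes held 31, 59 and 18 reads. Their summed level was 2.85-fold higher in PS19 than WT and 6.76-fold lower in PS19 Zbp1+/- than PS19. That sum leans on few genes: the median differences were 0.05 and -0.19 log2 units, and 1 gene went the other way in each comparison. Between PS19 and WT, 0 of the 6 were at least 2-fold higher, where 2.20% of all genes tested were. S100a9 (7, 23 and 3 reads) and S100a8 (5, 18 and 0), the 2 that reached 1 FPKM, were both at least 2-fold below PS19 in PS19 Zbp1+/-, and Ly6g was at 0 in every library. The part of these cells in the member values was not tested. Plasmacytoid dendritic cell markers other than Siglech, which microglia also express, had at most 6 reads each in a library.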

How the data were processed

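Hippocampal total RNA was extracted with TRIzol and made into libraries with an NEB Next Ultra RNA kit, per the labels' protocols. The authors deposited 1 table of FPKM values for 54532 genes, the unit being taken from the file's name and values. Gene lengths in bases stand in the same deposited table. The submitters' processing notes name Trim Galore 0.6.5, STAR 2.5.3a, featureCounts 2.0.4 and mm39, with no roles, whereas the gene positions in the table are those of GRCm38 and are given so. Strandedness of the counting is not given in the sources used here.

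Multiplying FPKM by gene length gave whole multiples of a unit step for 100% of values (within 0.01), hence reads (16746085 in WT, 16400328 in PS19, 17109734 in PS19 Zbp1+/-) and implied library sizes of 17253479, 17287957 and 15826984. The recovered reads exceed the implied size in PS19 Zbp1+/- and fall below it in WT and PS19, for a reason not given in the sources used here. Read ratios use the implied sizes. Scaling by total recovered reads moved the members' median between PS19 Zbp1+/- and PS19 to -2.08. Differences are of log2(FPKM + 1). Genes tested are protein-coding and reach 1 FPKM in a library of the pair, and the threshold is 2-fold. Read ratios have exact 95% intervals given the sum of both counts. A count of 0 was set at 3 reads for limits. No p-value was computed. The members and lists were chosen with earlier results of these data known. Named genes were all 8 members, Zbp1, up to 3 pathway genes per role with the largest absolute difference between PS19 and WT, the 5 nearest patterns and the neighbours past 2-fold, and others were named after their values were seen. A gene that this rule names is not reported here. Of the listed pathway names, Rigi, Cgas and Sting1 are newer symbols of genes present under older ones. Promoters are RefSeq windows (GRCm38.p6), and transcripts GENCODE M21, searched with BLAST 2.17.0 and aligned with Biopython 1.88. The alternatives tried were other pseudocounts, scalings, filters, thresholds and gene sets. The calculations were tested on simulated data and ran on Python 3.11.15 with scipy 1.17.1, pandas 2.3.3 and numpy 2.4.6, with plots from matplotlib 3.10.9. Every sample column was used.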

Additional observations from a re-analysis of the deposited data

How the results depend on the processing

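No paired analysis was possible because each genotype had 1 library and the labels carry no replicate numbers, and no library could be left out. Single members kept their sign in all 40 alternative values between PS19 and WT (0.48 to 3.90) and in all 40 between PS19 Zbp1+/- and PS19 (-6.19 to -0.47). Between PS19 Zbp1+/- and WT 38 of 40 did, Cmpk2 being the exception under TPM and total-read scaling. Other pseudocounts and read ratios cannot change a sign at these counts, so only TPM and total-read scaling could have done so. The all-gene median between PS19 Zbp1+/- and PS19 went from 0.04 to -0.25 with TPM and -0.12 with total reads, and the members lay -2.90 and -1.96 from it. The share of higher among called genes went from 27.9% to 10.4% and 14.6% there, and from 32.0% to 18.5% and 17.3% between PS19 Zbp1+/- and WT.

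The median of the 8 members between PS19 and WT was 2.82 and 2.36 with pseudocounts of 0.1 and 0.5, 2.77 with TPM and 2.90 with read ratios. For PS19 Zbp1+/- against PS19 it was -3.41, -2.51, -3.15 and -3.70 in the same order. At 4-fold, 4 members passed in each of these comparisons. Between PS19 Zbp1+/- and WT, members past the threshold numbered 2 and 1 with pseudocounts of 0.1 and 0.5, 2 with TPM, 2 with read ratios and 1 at 1.5-fold.

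With a pseudocount of 0.1, TPM, read ratios, a 1.5-fold threshold, a 4-fold threshold and all gene types in turn, the genes called among all tested numbered 642, 883, 695, 1150, 39 and 690 between PS19 and WT (317 in the main setting). They numbered 1614, 2241, 1696, 2741, 114 and 1569 for PS19 Zbp1+/- against PS19 (914), and between PS19 Zbp1+/- and WT 833, 1120, 919, 1720, 60 and 1010 (416). Pathway genes called between PS19 and WT were 53 with TPM and 1 at 4-fold, and between PS19 Zbp1+/- and PS19 9 at 4-fold. For PS19 Zbp1+/- against WT they were 9 and 8 with pseudocounts of 0.1 and 0.5, 12 with TPM, 7 with total reads, 10 with read ratios, 10 at 1.5-fold and 0 at 4-fold. The cause was not tested beyond what each setting changes by construction.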
